A study of Homo sapiens with 9 samples.

Results

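The Fanconi core and ID2 complex genes are 10 human genes: FANCA, FANCB, FANCC, FANCE, FANCF, FANCG, FANCL and FANCM of the core complex, and FANCD2 and FANCI of the ID2 complex. They were taken by symbol from a table of 34789 genes, and all 10 were found there. The series is bulk RNA sequencing of H1299 cells, a human non-small cell lung cancer line labelled as wild type, in 3 groups of 3 samples. One group received a control siRNA (siControl), and the others received siFOXN3-1 or siFOXN3-2, a pair of siRNAs against the forkhead repressor FOXN3, each used at 50 nM. In the treatment field, siFOXN3-2 replicate 2 is given as siFOXN4 and replicate 3 as siFOXN5. Their titles and table columns read siFOXN3-2, and they were analysed as such. Whether replicates are separate cultures is not stated in the labels, and p-values therefore reflect the sample-to-sample spread alone, part of which may be technical.

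The Fanconi anaemia pathway repairs DNA interstrand crosslinks met by replication forks. FANCM and its partners anchor the core complex on chromatin. The core is a ubiquitin ligase built of a FANCB-FANCL-FAAP100 catalytic module, a FANCA-FANCG-FAAP20 module and a FANCC-FANCE-FANCF module. With the ubiquitin-conjugating enzyme UBE2T it attaches ubiquitin to FANCD2 and FANCI, which clamps the pair on DNA, and USP1 with WDR48 takes the ubiquitin off again. Nucleases then unhook the crosslink, and translesion polymerases and homologous recombination complete the repair.

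FOXN3 was measured at 4.85, 5.25 and 5.00 FPKM (fragments per kilobase of exon, scaled to depth) in siControl. It was at 1.28, 1.24 and 1.16 FPKM under siFOXN3-1 and at 0.858, 0.958 and 1.06 FPKM under siFOXN3-2, so all 6 knockdown samples lay below all controls, including those with the siFOXN4 and siFOXN5 labels. Depth, recovered from the steps between FPKM values, was 17000000 to 19600000 fragments a sample, and a member had 30 to 1561 fragments in a sample. The cells carried VIM at 476 ± 27.7 and KRT18 at 184 ± 11.1 FPKM in siControl (SD, n = 3), while EPCAM and CDH1 stayed under 1 FPKM. Of 11 immune, fibroblast and endothelial markers, 8 stayed under 1 FPKM in every sample and the highest single value was 2.18 FPKM. Their summed levels moved with the groups. The immune sum was 0.632 to 1.40 FPKM in siControl, 0.226 to 0.461 under siFOXN3-1 and 1.73 to 2.23 under siFOXN3-2, and PTPRC and CD3E were at 0 in the siFOXN3-1 samples. The fibroblast and endothelial sum was 1.22 to 1.33, 0.802 to 0.972 and 2.43 to 3.66 FPKM in the same order, and the part of these markers in the results was not tested.

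The promoters of 4 members are shown, because these are the genes whose contrast the results turn on. FANCC fell most with siFOXN3-2, FANCD2 is the core's substrate, FANCA is the subunit whose call depended on a correction for base composition, and FANCB did not pass the test. Each runs 5′ to 3′ on the gene's strand from 250 bases before to 50 bases after the start (RefSeq, GRCh38.p14). FANCC lies at chr9:95317660-95317959 on the minus strand, FANCD2 at chr3:10026187-10026486 on the plus strand, FANCA at chr16:89816598-89816897 on the minus strand and FANCB at chrX:14873020-14873319 on the minus strand. Capitals mark matches on either strand to E2F words (TTTGGCGC or TTTCGCGC), the CCAAT box (CCAAT), the forkhead core (TAAACA) or the FHL core (GACGC), a word bound by some forkhead proteins including those of the FOXN group.
FANCC: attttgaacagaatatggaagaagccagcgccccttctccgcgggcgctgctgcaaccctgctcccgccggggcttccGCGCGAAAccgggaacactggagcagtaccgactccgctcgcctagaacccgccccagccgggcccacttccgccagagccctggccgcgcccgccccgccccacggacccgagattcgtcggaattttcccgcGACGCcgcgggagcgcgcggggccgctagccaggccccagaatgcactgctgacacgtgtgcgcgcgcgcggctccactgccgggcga
FANCD2: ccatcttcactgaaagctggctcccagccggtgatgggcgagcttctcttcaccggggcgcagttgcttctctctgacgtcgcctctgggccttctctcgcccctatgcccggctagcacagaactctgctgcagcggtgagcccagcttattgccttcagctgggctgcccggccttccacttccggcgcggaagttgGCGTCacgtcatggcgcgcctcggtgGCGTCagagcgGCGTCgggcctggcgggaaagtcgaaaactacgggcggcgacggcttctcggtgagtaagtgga
FANCA: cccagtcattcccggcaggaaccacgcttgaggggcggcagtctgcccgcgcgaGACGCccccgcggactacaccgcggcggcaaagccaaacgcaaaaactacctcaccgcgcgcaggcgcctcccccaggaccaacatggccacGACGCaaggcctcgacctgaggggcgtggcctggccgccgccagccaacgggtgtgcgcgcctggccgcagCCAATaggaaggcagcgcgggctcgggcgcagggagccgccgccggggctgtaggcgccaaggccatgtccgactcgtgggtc
FANCB: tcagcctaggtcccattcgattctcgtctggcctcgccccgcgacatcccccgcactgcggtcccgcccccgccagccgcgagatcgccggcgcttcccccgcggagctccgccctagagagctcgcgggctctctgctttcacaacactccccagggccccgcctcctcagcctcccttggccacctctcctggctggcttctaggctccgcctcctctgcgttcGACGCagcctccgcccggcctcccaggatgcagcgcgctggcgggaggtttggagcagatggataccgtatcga

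Promoter windows were held for 9 of the 10 members, and 7 of these had at least 60% G and C. An FHL core word was found in 7 of 9 member windows, against 35.3% of all 35116 promoters and 55.8% of those with at least 60% G and C. The windows of FANCF and FANCM, which held the word, had only 50.7% and 48% G and C. The counts of 9 are therefore not on the same footing as the GC-rich shares. FANCD2 carried 3 of them, at 51, 25 and 14 bases before the start. The windows of FANCE and FANCG held none, and FANCE did not pass the expression test while FANCG fell. The forkhead core TAAACA was in 0 of 9 member windows and in 12.3% of all promoters, or 3.76% of the GC-rich ones. One of the E2F words TTTGGCGC and TTTCGCGC was in 1 of 9, FANCC, as GCGCGAAA at 172 bases before the RefSeq start used. This held for 1.148% of all promoters, or 1.611% of the GC-rich ones. Other forms of the E2F site were not searched, so a window without a match may still hold one. The CCAAT box was in 3 of 9, FANCA, FANCF and FANCM, against 34.6% of all promoters, or 28.7% of the GC-rich ones. Of these windows only that of FANCA was GC-rich. No matches overlapped each other. A match is a description of the letters, and binding was not measured here.

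With each siRNA, 6 of the 9 members that passed the expression filter (mean of at least 1 FPKM) fell, none rose and 3 did not pass the test. FANCA, FANCG, FANCL, FANCC, FANCD2 and FANCI fell with both siRNAs, to between 47.8% and 80.1% of their control level. FANCB, FANCE and FANCM did not pass with either, and FANCF lay below the filter. Calls here are from limma on log2(FPKM + 1), with Benjamini-Hochberg adjustment over all 12707 tested genes and a threshold of 0.05. On that scale a change of a low gene is understated. Lower calls were common in the table: 45.3% of tested genes were lower and 19.3% higher with siFOXN3-1, and 39.2% lower and 24.1% higher with siFOXN3-2. The median log2 change of the 9 members was -0.39 with siFOXN3-1 and -0.36 with siFOXN3-2, against -0.17 and -0.10 over all tested genes. All values of a siRNA group lay below all siControl values for the same 6 of the 9 tested members with each siRNA, and for FANCF too. Over all tested genes this held for 49.1% with siFOXN3-1 and 42% with siFOXN3-2. All values lay above the controls for FANCM with siFOXN3-2 and for no other tested member, against 22% of all tested genes with siFOXN3-1 and 26.2% with siFOXN3-2. Both comparisons share the siControl samples. Relative to those medians, the log2 changes of the 6 members that fell lay between -0.20 and -0.70 (FANCI and FANCL with siFOXN3-1) and between -0.18 and -0.71 (FANCA and FANCC with siFOXN3-2). Median-ratio scaling, which brings the median gene to about 0, called 3904 genes lower and 3988 higher with siFOXN3-1 and 3912 lower and 3918 higher with siFOXN3-2, and the same 6 members were called lower under it. They were also called lower with siFOXN3-2 when the samples with siFOXN4 and siFOXN5 treatment labels were left out, a choice made after seeing the data that leaves 1 siFOXN3-2 sample, assumed to vary like the others. In bulk samples, fewer cells of a kind and less RNA per cell cannot be told apart.

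**Figure D1:**
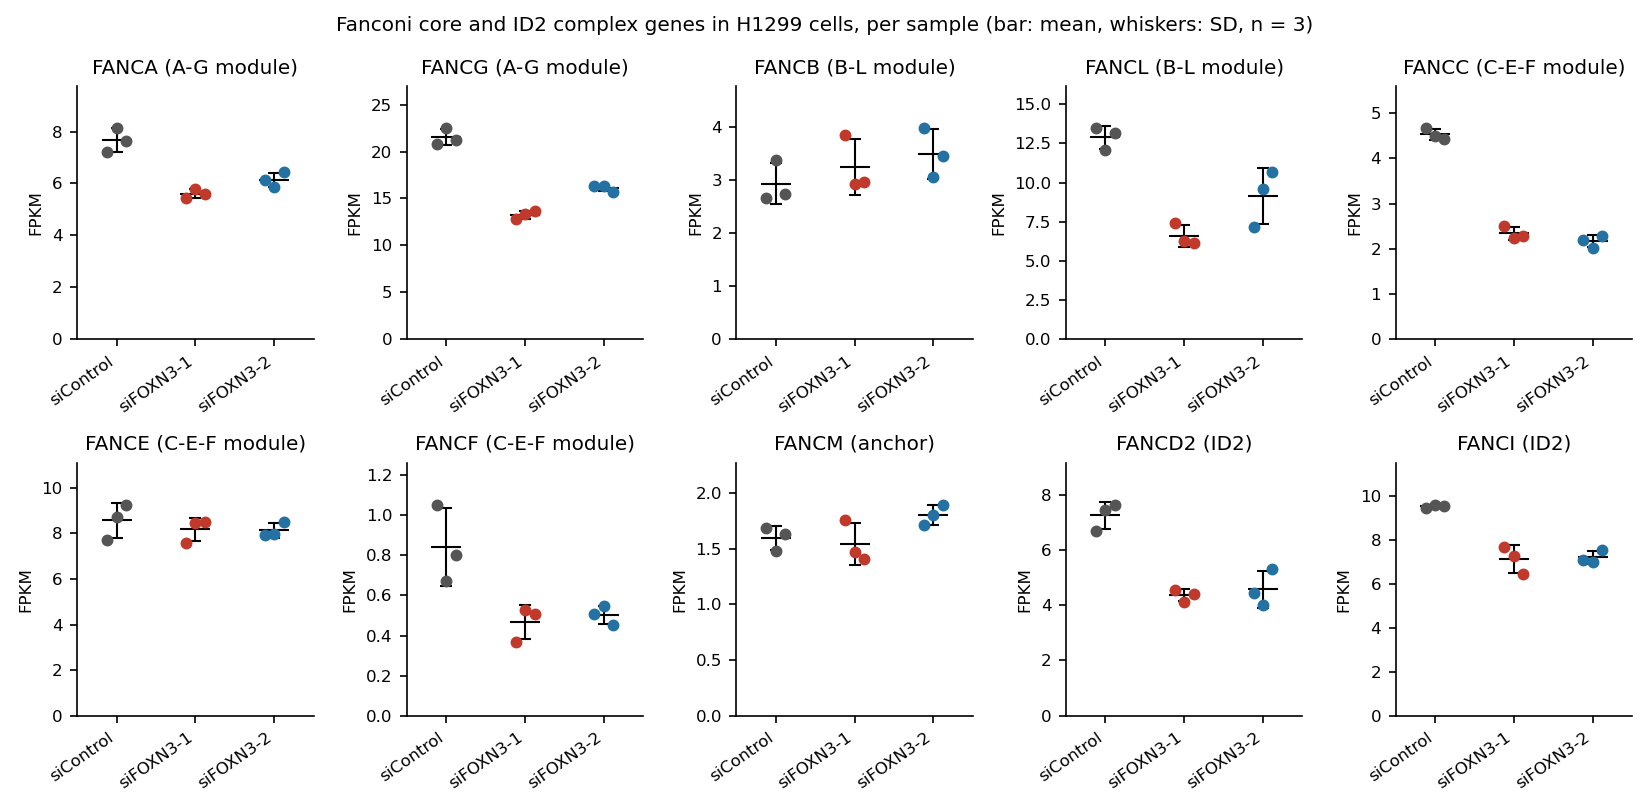
FPKM of each of the 10 members in every sample, with a point per sample, a bar at the group mean and whiskers for the SD (n = 3), each panel on its own axis from 0. The siFOXN3-1 and siFOXN3-2 points of FANCA, FANCG, FANCL, FANCC, FANCF, FANCD2 and FANCI lie below all siControl points, while those of FANCB and FANCE overlap them.

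In siControl the members spanned a wide range per length. FANCG was highest at 21.5 ± 0.867 FPKM, followed by FANCL at 12.9 ± 0.741, FANCI at 9.53 ± 0.0785, FANCE at 8.57 ± 0.776, FANCA at 7.67 ± 0.455, FANCD2 at 7.25 ± 0.501, FANCC at 4.53 ± 0.122, FANCB at 2.93 ± 0.390, FANCM at 1.60 ± 0.107 and FANCF at 0.842 ± 0.194 (SD, n = 3). The ranges of FANCE and FANCA overlapped, as did those of FANCA and FANCD2, so the order within these neighbours was not resolved. All other neighbours had separate ranges.

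The FANCA-FANCG-FAAP20 module was lower throughout. FANCG, the scaffold that binds FANCA (chr9:35073835-35080016, minus strand, GRCh38 as in GENCODE 29, 14 exons in its longest transcript), was at 20.8, 22.5 and 21.3 FPKM in siControl. It was at 12.8, 13.3 and 13.7 FPKM under siFOXN3-1 and at 16.3, 16.3 and 15.7 FPKM under siFOXN3-2. The 3 groups did not overlap, and siFOXN3-2 lay between. FANCG fell by 0.66 on the log2 scale with siFOXN3-1 (SE 0.0513, limma adjusted p = 2.61e-06) and by 0.40 with siFOXN3-2 (limma adjusted p = 8.30e-05). FANCA, which binds FANCG and FAAP20 (chr16:89737549-89816657, minus strand, 43 exons), was at 7.22, 8.13 and 7.66 FPKM in siControl. Its values were 5.46, 5.79 and 5.59 FPKM under siFOXN3-1 and 6.12, 5.88 and 6.43 FPKM under siFOXN3-2. Both siRNA groups lay below all controls and did not separate from each other in the test (limma adjusted p = 0.173). FANCA fell by 0.39 (SE 0.0594, limma adjusted p = 2.33e-04) and by 0.28 (limma adjusted p = 0.00214). With a correction for GC content and length, chosen after seeing the data, its log2 changes were -0.10 (adjusted p = 0.102) and 0.01 (adjusted p = 0.847), which ends both calls. Of its exon bases, 23.6% lie opposite exons of ZNF276, which itself fell by 0.45 (limma adjusted p = 0.00402) and by 0.29 (limma adjusted p = 0.0391), and a library without strand cannot separate the pair there. FAAP20, the small subunit that stabilises FANCA and reads ubiquitin, was at 4.80 ± 0.487 FPKM in siControl, 2.93 ± 0.321 under siFOXN3-1 and 3.01 ± 0.282 under siFOXN3-2 (SD, n = 3). It fell by 0.56 (limma adjusted p = 2.96e-04) and by 0.53 (limma adjusted p = 4.42e-04). Its calls ended under the same correction, at -0.19 (adjusted p = 0.0938) and -0.18 (adjusted p = 0.105).

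In the catalytic module, the ligase and its scaffold fell while FANCB did not pass the test. FANCL, the RING-type ubiquitin ligase of the pathway (chr2:58159243-58241372, minus strand, 14 exons), was at 13.5, 12.05 and 13.1 FPKM in siControl. It was at 7.40, 6.25 and 6.13 FPKM under siFOXN3-1 and at 7.17, 9.57 and 10.7 FPKM under siFOXN3-2. All 6 siRNA values were below all controls, and siFOXN3-2 spread most, with replicate 1 inside the siFOXN3-1 range. FANCL fell by 0.87 (SE 0.121, limma adjusted p = 1.20e-04) and by 0.47 (limma adjusted p = 0.00650). Without the samples carrying siFOXN4 and siFOXN5 labels the siFOXN3-2 change of FANCL was -0.76. Exons of VRK2 and of the non-coding AC007250.1 lie opposite 19.7% of its exon bases, and VRK2 fell by 0.21 with siFOXN3-1 (limma adjusted p = 0.0320). FAAP100, the scaffold of this module, was at 7.47, 8.11 and 6.87 FPKM in siControl, 2.37, 2.91 and 3.12 under siFOXN3-1, and 5.11, 4.57 and 5.404 under siFOXN3-2. Its 3 groups did not overlap, and it fell by 1.16 (limma adjusted p = 2.74e-06) and by 0.49 (limma adjusted p = 8.77e-04). With the GC and length correction FAAP100 was at -0.11 with siFOXN3-2 and did not pass (adjusted p = 0.230). FANCB (chrX:14835961-14873069, minus strand, 11 exons), which with FAAP100 scaffolds FANCL, was at 2.67, 3.38 and 2.74 FPKM in siControl. Its values were 3.84, 2.92 and 2.96 FPKM under siFOXN3-1 and 3.98, 3.05 and 3.45 FPKM under siFOXN3-2. The groups overlapped. The log2 change of FANCB was 0.11 (95% interval -0.14 to 0.36, limma adjusted p = 0.420) and 0.19 (-0.06 to 0.44, limma adjusted p = 0.156), so both intervals end above the falls of FANCL. Under median-ratio scaling, FANCB with siFOXN3-2 was at 0.28 and passed as higher (limma adjusted p = 0.0469). Under quantile normalization FANCB passed as higher with both, at 0.37 (limma adjusted p = 0.00951) and 0.38 (limma adjusted p = 0.00804).

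In the module that recruits FANCD2 and FANCI to the ligase, FANCC and FANCF were lower and FANCE was not. FANCC, which bridges FANCE and FANCF (chr9:95099054-95426796, minus strand, 15 exons), was at 4.67, 4.50 and 4.44 FPKM in siControl. It was at 2.51, 2.24 and 2.28 FPKM under siFOXN3-1 and at 2.20, 2.02 and 2.27 FPKM under siFOXN3-2. The lowest control value was well above the highest siRNA value, and the siRNA groups overlapped. FANCC fell by 0.73 (SE 0.0646, limma adjusted p = 5.99e-06) and by 0.81 (limma adjusted p = 3.39e-06), to 51.7% and 47.8% of control. FANCE, the subunit that contacts FANCD2 (chr6:35452356-35467103, plus strand, 10 exons), was at 7.73, 8.73 and 9.26 FPKM in siControl. Its values were 7.60, 8.46 and 8.50 FPKM under siFOXN3-1 and 7.92, 7.98 and 8.51 FPKM under siFOXN3-2. The groups overlapped, and the change was -0.06 with siFOXN3-1 (95% interval -0.22 to 0.10, limma adjusted p = 0.5) and -0.06 with siFOXN3-2 (-0.22 to 0.10, limma adjusted p = 0.452). Under the GC and length correction FANCE turned to 0.22 with siFOXN3-1 and passed as higher (adjusted p = 0.0152). FANCF, the adaptor that ties this module to FANCG and FANCA, is encoded by a single exon (chr11:22622890-22625841, minus strand) and was the lowest member. Its fragments numbered 84, 55 and 67 in siControl, 30, 41 and 38 with siFOXN3-1, and 37, 43 and 35 with siFOXN3-2. In FPKM these were 1.05, 0.671 and 0.802, then 0.368, 0.527 and 0.508, then 0.509, 0.546 and 0.454. Every siRNA sample lay below every control sample. The mean difference between the 6 siRNA and 3 control samples was -0.31 in log2(FPKM + 1), with a two-sided exact permutation p = 0.0238, the smallest this design can give.

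FANCM and its partners on chromatin did not move together. FANCM, the DNA translocase that recognises stalled forks (chr14:45135940-45200890, plus strand, 23 exons), was at 1.68, 1.48 and 1.63 FPKM in siControl. It was at 1.75, 1.47 and 1.40 FPKM under siFOXN3-1 and at 1.71, 1.80 and 1.89 FPKM under siFOXN3-2. The siFOXN3-1 values overlapped the controls and the siFOXN3-2 values lay just above them. The log2 change of FANCM was -0.03 (95% interval -0.21 to 0.15, limma adjusted p = 0.741) and 0.11 (-0.07 to 0.29, limma adjusted p = 0.254). Under quantile normalization FANCM turned to 0.21 with siFOXN3-1 (limma adjusted p = 0.0331) and was at 0.30 with siFOXN3-2 (limma adjusted p = 0.00604). FAAP24, its heterodimer partner in DNA binding, was at 15.3, 13.1 and 12.95 FPKM in siControl, 6.27, 6.37 and 6.84 under siFOXN3-1, and 8.38, 9.10 and 8.22 under siFOXN3-2. Its groups did not overlap, and it fell by 0.98 (limma adjusted p = 1.94e-06) and by 0.63 (limma adjusted p = 3.96e-05). CENPX, a histone-fold protein that binds FANCM, did not pass with siFOXN3-1 (0.03, limma adjusted p = 0.719) and fell by 0.31 with siFOXN3-2 (limma adjusted p = 0.00280). Under the GC and length correction CENPX was higher with siFOXN3-1 (0.26, adjusted p = 0.00360) and did not pass with siFOXN3-2 (-0.12, adjusted p = 0.104), and median-ratio scaling also put it higher with siFOXN3-1 (0.23, adjusted p = 0.0188). Of the 4 core-associated proteins tested, all fell with siFOXN3-2, and 1 of 4, FAAP24, still did under the GC and length correction. Over all 12707 tested genes, 4983 were lower with siFOXN3-2, and 4127 under that correction. CENPS, the partner of CENPX, had only 5 to 37 fragments a sample and shares 64.75% of its exon bases with the readthrough gene CENPS-CORT, so its values are uncertain. Summed over the 8 core genes, the level was 59.3 to 61.4 FPKM in siControl, 41.0 to 41.7 under siFOXN3-1 and 45.9 to 49.4 under siFOXN3-2.

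**Figure D2:**
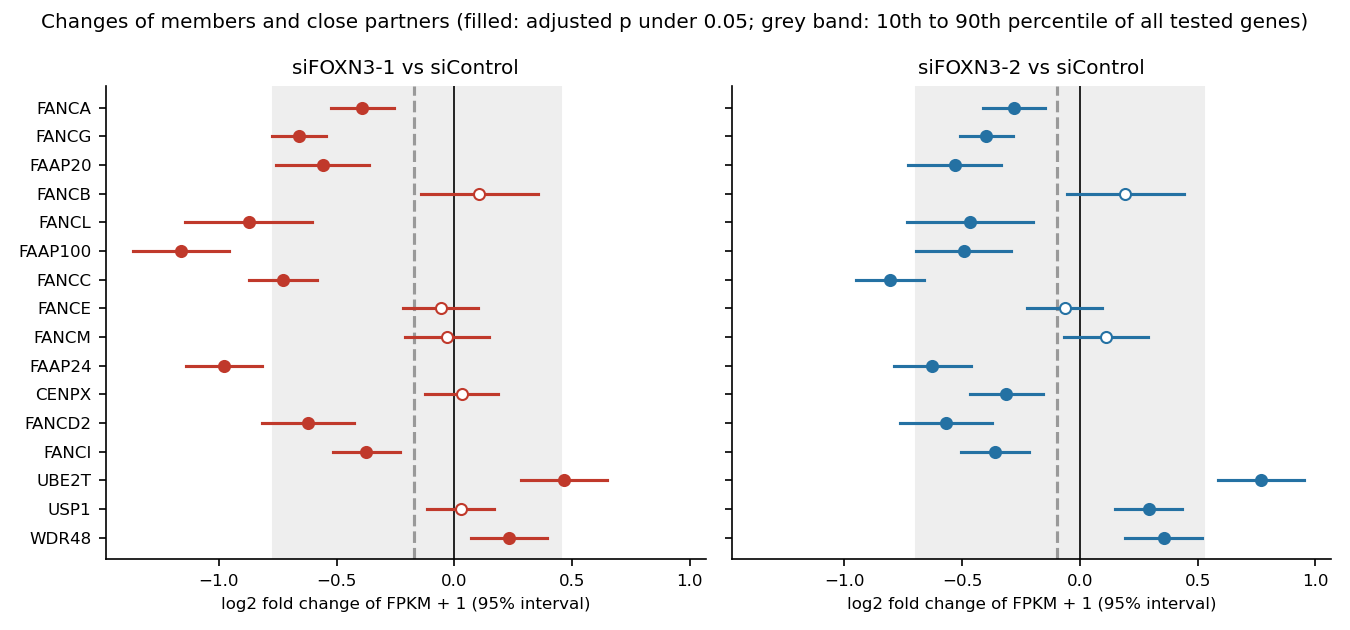
Log2 fold change of FPKM + 1 against siControl for the 9 tested members and their close partners, with 95% intervals from limma. Filled points passed an adjusted p of 0.05, the dashed line is the median of all 12707 tested genes and the grey band their 10th to 90th percentile. FAAP100, FAAP24 and FANCL with siFOXN3-1, FANCC with siFOXN3-2 and UBE2T with both siRNAs lie outside the band.

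Both subunits of the ID2 complex fell. FANCD2 (chr3:10026414-10101930, plus strand, 43 exons), the central substrate of the core, was at 6.69, 7.44 and 7.64 FPKM in siControl. It was at 4.56, 4.12 and 4.41 FPKM under siFOXN3-1 and at 4.44, 3.99 and 5.30 FPKM under siFOXN3-2. All siRNA values were below all controls, with siFOXN3-2 replicate 3 nearest to them. FANCD2 fell by 0.62 (SE 0.0878, limma adjusted p = 1.40e-04) and by 0.57 (limma adjusted p = 2.70e-04). FANCI, its paralogue and clamp partner (chr15:89243949-89317261, plus strand, 38 exons), was at 9.45, 9.60 and 9.54 FPKM in siControl. It was at 7.70, 7.28 and 6.46 FPKM under siFOXN3-1 and at 7.10, 6.99 and 7.52 FPKM under siFOXN3-2. Controls were tight and separate from the siRNA groups, which overlapped each other. FANCI fell by 0.37 (SE 0.0644, limma adjusted p = 5.35e-04) and by 0.36 (limma adjusted p = 7.07e-04). Exons of POLG lie opposite 5.90% of its exon bases, and POLG rose by 0.48 with siFOXN3-2 (limma adjusted p = 5.13e-04). FANCD2 fell more than FANCI within samples. The log2 ratio of FANCD2 to FANCI in FPKM was -0.396 ± 0.0921 in siControl, -0.710 ± 0.142 with siFOXN3-1 and -0.663 ± 0.152 with siFOXN3-2 (SD, n = 3). The 6 siRNA samples differed from the 3 controls by -0.29, with a two-sided exact permutation p = 0.0238, the smallest the design allows. The groups touched nearly, since the nearest siRNA sample was at -0.505 and the nearest control at -0.498. With 1 FPKM added to both genes, as in the limma tests, the difference was -0.23. Its two-sided exact permutation p was 0.0476, above the smallest possible.

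UBE2T and WDR48 rose with both siRNAs, and USP1 rose with siFOXN3-2. UBE2T, the conjugating enzyme that works with FANCL, was at 24.0, 21.2 and 24.3 FPKM in siControl. It was at 29.5, 32.4 and 35.4 FPKM under siFOXN3-1 and at 37.3, 43.0 and 40.2 FPKM under siFOXN3-2. The 3 groups did not overlap, and siFOXN3-2 was highest. UBE2T rose by 0.47 (SE 0.0820, limma adjusted p = 6.07e-04) and by 0.77 (limma adjusted p = 2.25e-05). USP1, the deubiquitinase, was at 23.4, 21.6 and 22.7 FPKM in siControl, 24.3, 21.9 and 22.8 under siFOXN3-1, and 25.7, 29.3 and 28.6 under siFOXN3-2. Its siFOXN3-1 values overlapped the controls and its siFOXN3-2 values did not. USP1 did not pass with siFOXN3-1 (0.03, limma adjusted p = 0.734) and rose by 0.29 with siFOXN3-2 (limma adjusted p = 0.00271), but did not pass without the samples carrying siFOXN4 and siFOXN5 labels (0.18, limma adjusted p = 0.0914). WDR48, the cofactor that activates USP1, was at 8.22 ± 0.167, 9.86 ± 1.06 and 10.8 ± 0.563 FPKM in the 3 groups (SD, n = 3) and rose by 0.23 (limma adjusted p = 0.0168) and by 0.35 (limma adjusted p = 0.00167). Without siFOXN3-1 replicate 1, WDR48 was at 0.15 with siFOXN3-1 (adjusted p = 0.0505). Under median-ratio scaling USP1 also passed as higher with siFOXN3-1 (0.23, adjusted p = 0.0134). Within samples, the log2 ratio of USP1 to UBE2T was -0.0373 ± 0.0617 in siControl, -0.492 ± 0.191 with siFOXN3-1 and -0.528 ± 0.0311 with siFOXN3-2 (SD, n = 3). The siRNA and control ratios did not overlap and differed by -0.47, with a two-sided exact permutation p = 0.0238, the smallest possible.

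**Figure D3:**
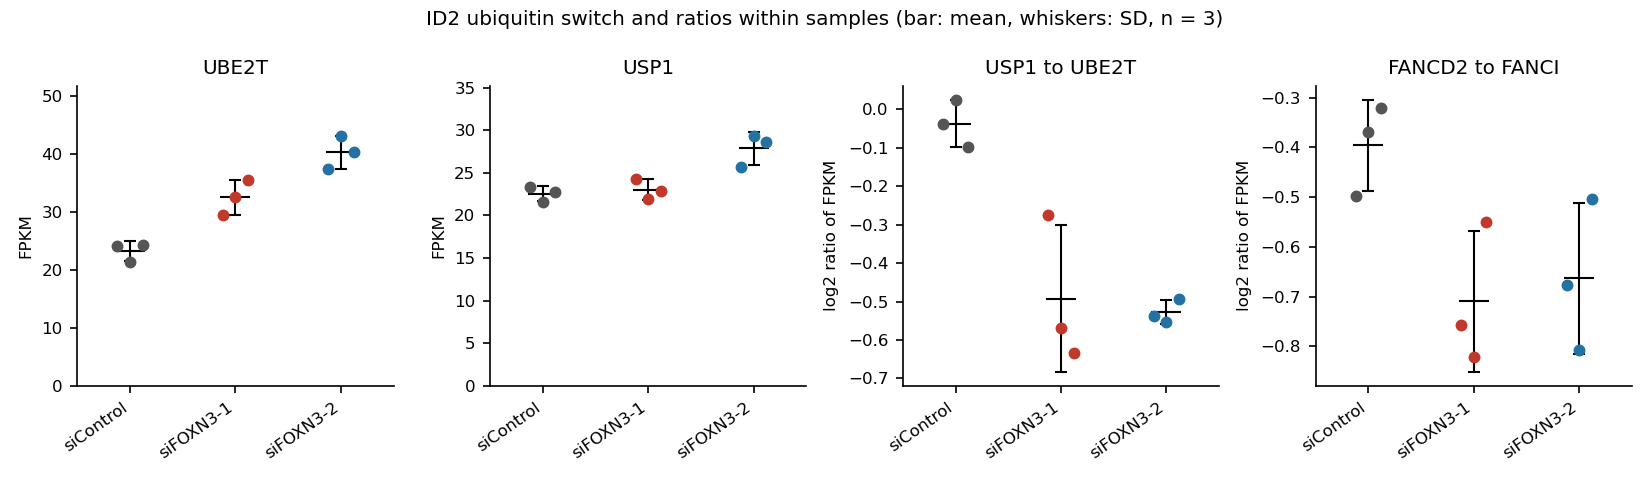
FPKM of UBE2T and USP1 (left panels, axes from 0) and the within-sample log2 ratios of USP1 to UBE2T and of FANCD2 to FANCI (right panels), with a point per sample, a bar at the mean and whiskers for the SD (n = 3). UBE2T steps up from siControl to siFOXN3-1 to siFOXN3-2, and both ratios are lower in the 6 siRNA samples than in the 3 controls.

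The 36 pathway partners, which include these associated proteins and enzymes, were mostly lower. Of 34 tested, 23 fell and 3 rose with siFOXN3-1, and 22 fell and 5 rose with siFOXN3-2, with a median log2 change of -0.48 and -0.41. Over all tested genes, 45.3% were lower and 19.3% higher with siFOXN3-1, at a median of -0.17. With siFOXN3-2, 39.2% were lower and 24.1% higher, at a median of -0.10. Nucleases of crosslink unhooking fell in 7 of 8 with siFOXN3-1 and 6 of 8 with siFOXN3-2, and none rose. The siFOXN3-1 call of DCLRE1B was lost under median-ratio scaling (-0.15, adjusted p = 0.116), quantile normalization (-0.08, adjusted p = 0.430) and the GC and length correction (-0.15, adjusted p = 0.104). With the GC and length correction 4 of 8 fell with siFOXN3-2, beside 4127 of all 12707 tested genes. The calls of SLX4 (-0.15, adjusted p = 0.102) and MUS81 were lost. ERCC1, a partner of the nuclease ERCC4, passed as higher with siFOXN3-1 under that correction (0.41, adjusted p = 0.00185) and under median-ratio scaling (0.32, adjusted p = 0.00656). EME1, which partners MUS81 in cutting branched DNA, was at 11.4 FPKM in siControl and at 4.71 and 4.90 FPKM with the siRNAs, and it fell by 1.11 (limma adjusted p = 6.91e-07) and by 1.07 (limma adjusted p = 9.68e-07). MUS81 fell by 0.83 and 0.38 (with siFOXN3-2, -0.14 and adjusted p = 0.0811 under the GC and length correction). Further falls were those of DCLRE1A (SNM1A), an exonuclease that digests past a crosslink, by 1.12 and 1.01, and of FAN1, a nuclease recruited by ubiquitinated FANCD2, by 0.82 and 0.71. Downstream recombination genes that are also Fanconi genes fell in 6 of 7 with each siRNA. BRCA1 fell by 0.95 and 0.97, XRCC2, a homologous recombination factor, by 0.94 and 0.99, PALB2, which links BRCA1 to BRCA2, by 0.93 and 0.58, and the helicase BRIP1 by 0.88 and 0.58.

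Translesion synthesis did not move as a group in the main model, with 1 of 5 genes lower and 1 higher with each siRNA. Over all tested genes, 45.3% were lower and 19.3% higher with siFOXN3-1, and 39.2% lower and 24.1% higher with siFOXN3-2. RAD18, the ligase that ubiquitinates PCNA, rose by 0.23 (limma adjusted p = 0.0207) and by 0.22 (limma adjusted p = 0.0268). The RAD18 call was lost without siControl replicate 1 or 2 with both siRNAs (0.19 to 0.21), without siFOXN3-1 replicate 1 or 2 (both 0.21) and without siFOXN3-2 replicate 3 (0.15). REV3L, the catalytic subunit of polymerase zeta, fell by 0.38 with siFOXN3-1 (limma adjusted p = 0.0132) but did not pass under median-ratio scaling (-0.23, adjusted p = 0.0993), and POLH, polymerase eta, fell by 0.48 with siFOXN3-2 (limma adjusted p = 4.32e-04). REV1 did not pass in either comparison with siControl (limma adjusted p = 0.672 and 0.0638). With siFOXN3-2, REV1 passed as higher under median-ratio scaling (0.27, adjusted p = 0.00770), quantile normalization (0.33, adjusted p = 0.00144) and the GC and length correction (0.21, adjusted p = 0.0111). MAD2L2 also passed as higher under that correction, with siFOXN3-1 (0.33, adjusted p = 1.48e-04) and siFOXN3-2 (0.13, adjusted p = 0.0354). Under median-ratio scaling it did so with siFOXN3-1 (0.21, adjusted p = 0.0265). Sensing and ATR signalling genes fell in 6 of 7 with siFOXN3-1 and in 5 of 7 with siFOXN3-2. With siFOXN3-1, ATR (-0.18, adjusted p = 0.0565) and RPA3 (-0.08, adjusted p = 0.413) did not pass under median-ratio scaling. Nor did they under quantile normalization (-0.08, adjusted p = 0.373, and -0.17, adjusted p = 0.0721). ATR with siFOXN3-2 did not pass under quantile normalization either (-0.12, adjusted p = 0.189). UHRF1, which senses interstrand crosslinks, fell by 0.79 and 0.50, RPA1 and RPA2 of the single-strand binding complex by 0.45 and 0.28 and by 0.42 and 0.31, and ATRIP, the partner of ATR, by 0.52 and 0.43 (with siFOXN3-2, -0.12 and adjusted p = 0.138 under the GC and length correction). CHEK1, the kinase downstream of ATR, rose by 0.26 with siFOXN3-2 (limma adjusted p = 0.0153), while 5 of the 7 genes fell and RPA3 did not pass (0.05). Without the samples carrying siFOXN4 and siFOXN5 labels, CHEK1, which also did not pass without siControl replicate 2, siFOXN3-2 replicate 2 or siFOXN3-2 replicate 3 (each 0.22 to 0.23), was at 0.11 (limma adjusted p = 0.354) and RAD18 with siFOXN3-2 at 0.12 (limma adjusted p = 0.290), and neither passed.

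**Figure D4:**
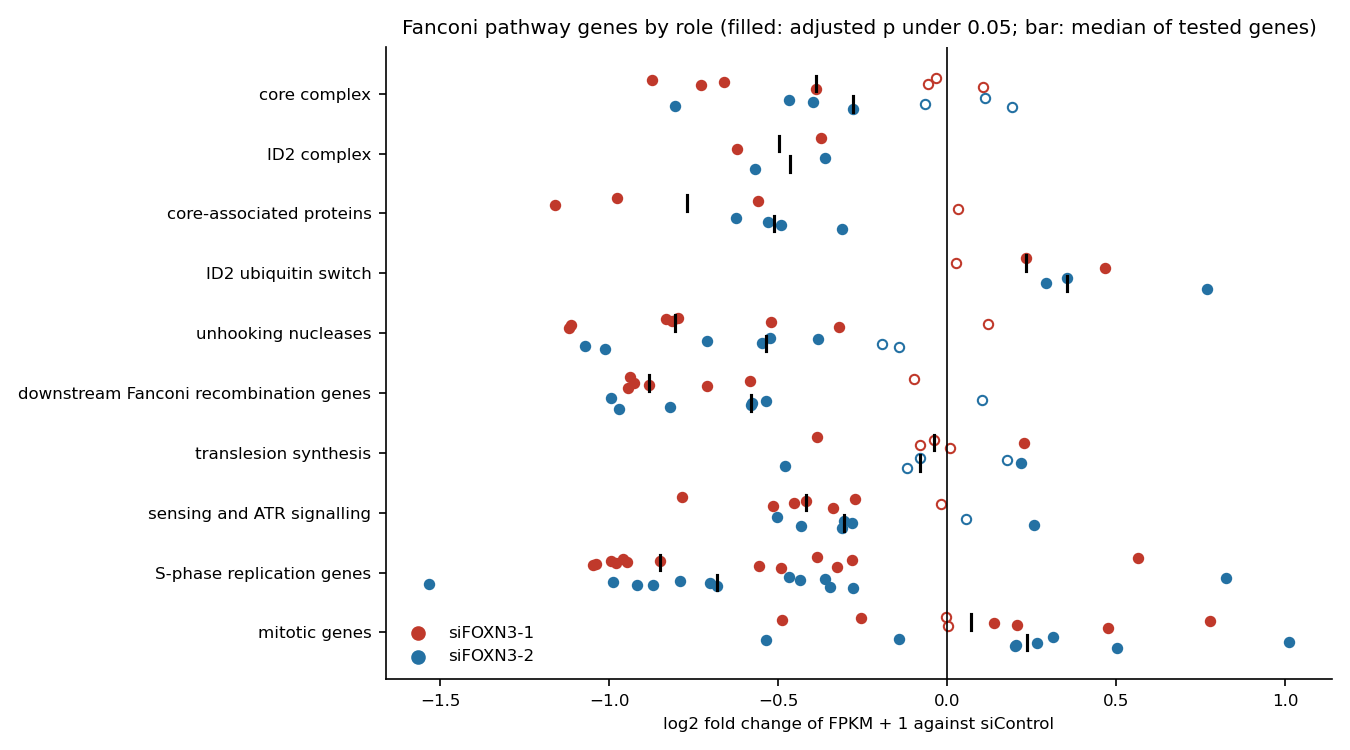
Log2 fold change of FPKM + 1 against siControl for each tested gene of the pathway, grouped by role, with siFOXN3-1 in red and siFOXN3-2 in blue. Filled points passed an adjusted p of 0.05 and bars are list medians. The ubiquitin switch genes lie to the right of 0 while the nuclease, recombination and S-phase lists lie mostly to the left.

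Genes of DNA replication moved beside the members. Of 13 S-phase genes, 12 fell and 1 rose with each siRNA, and their summed level was 577 to 621 FPKM in siControl, 385 to 411 under siFOXN3-1 and 409 to 428 under siFOXN3-2. MCM2, a subunit of the replicative helicase, fell by 1.04 and 0.92, PCNA, the polymerase clamp, by 0.96 and 0.36, and E2F1, an activator of S-phase genes, by 0.56 and 0.68. RRM2, a subunit of ribonucleotide reductase, was the gene that rose, by 0.56 (limma adjusted p = 2.05e-04) and by 0.82 (limma adjusted p = 1.70e-05). Of 8 mitotic genes, 2 fell and 4 rose with siFOXN3-1, and 2 fell and 6 rose with siFOXN3-2. Their sum was 491 to 501 FPKM in siControl, 554 to 571 under siFOXN3-1 and 601 to 639 under siFOXN3-2. Over all tested genes, 45.3% were lower and 19.3% higher with siFOXN3-1, and 39.2% lower and 24.1% higher with siFOXN3-2. The part of cell cycle stage in the members' changes was not tested.

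Between the siRNAs, 2 of 9 members differed and both were higher with siFOXN3-2: FANCG by 0.26 (SE 0.0513, limma adjusted p = 0.00351) and FANCL by 0.41 (SE 0.121, limma adjusted p = 0.0253). Over all tested genes, 25.4% were higher and 10.7% lower with siFOXN3-2 than with siFOXN3-1, with a median of 0.08. FANCL did not pass without siFOXN3-1 replicate 2 (0.37, adjusted p = 0.0800) or 3 (0.36, adjusted p = 0.0767), nor without siFOXN3-2 replicate 2 (0.37, adjusted p = 0.0697) or 3 (0.29, adjusted p = 0.0828). With siFOXN3-2 reduced to the sample whose labels agree, FANCL was at 0.11 (adjusted p = 0.507) and FANCG at 0.28 (adjusted p = 0.0325). FANCC, FANCD2 and FANCI did not pass (-0.08, 0.05 and 0.01). Among partners, 13 were higher and 3 lower with siFOXN3-2, with FAAP100 at 0.67 (limma adjusted p = 5.47e-04) and MUS81 at 0.45 (limma adjusted p = 0.00168) among the higher.

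Across the 9 samples, FANCA and FANCD2 followed the mean of the other members most closely, with Pearson r of 0.938 and 0.930, and FANCB did not (r = -0.337). The genes outside the lists most like the mean of the 9 tested members were PTGR3 (r = 0.992), CILK1 (r = 0.991), EPM2AIP1 (r = 0.990), PBRM1 (r = 0.989) and LINC02616 (r = 0.989). PBRM1, a subunit of a SWI/SNF chromatin remodeller, was at 6.59 FPKM in siControl, 3.99 under siFOXN3-1 and 4.79 under siFOXN3-2. These 9 points share 3 groups and their libraries, so the r values describe the group steps.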

How the data were processed

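RNA of H1299 cells was sequenced from 3 samples in each of 3 groups named by the sample titles. Per the labels' protocols, total RNA was isolated with TRIzol and libraries were made with the NEBNext Ultra RNA kit, an unstranded chemistry. The authors deposited FPKM for 34789 genes, with no counts. Per the submitters' processing notes, fastp 0.14.0, HISAT2 2.1.0, StringTie 1.3.3b and GRCh38 were used. For the annotation release and counting options, nothing was given in the sources used here. Symbols came from a gene table and matched 98.98% of IDs.

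FPKM were tested with limma 3.58.1 in R 4.3.3 on log2(FPKM + 1) in 1 model of 3 groups, with trended eBayes (6 residual and 4.03 prior degrees of freedom). Genes with a mean under 1 FPKM (22082) were left out of the 12707 tested. FANCF and 2 ratios were tested by two-sided exact permutation (scipy 1.17.1). Low FPKM values fell on steps worth 1 fragment given GENCODE 29 exon lengths, and 98.5% to 98.75% of low values were whole within 0.05. For FANCC, FANCE and FANCF another length fitted the steps. Reads were recovered whole for 12602 tested genes (99.17%) and tested with voom as an alternative. Scripts were tested on simulated data. Same-numbered replicates did not deviate together (r from -0.28 to 0.0528), and the main model did not pair samples by number. Deviations from means of 3 samples sum to 0 in each group, so this cannot tell whether same-numbered samples were handled together.

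The members and gene lists were chosen with earlier results of these data known. Named genes are all members, their core-associated and ubiquitin switch partners, up to 4 genes a list by smallest adjusted p, genes moving against their list, FOXN3, MCM2, PCNA, E2F1 and the 5 genes most like the members.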

Additional observations from a re-analysis of the deposited data

Results flagged for a closer look

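Named genes whose change differed between siFOXN3-1 and siFOXN3-2 are given here, as log2 differences of siFOXN3-2 minus siFOXN3-1 with limma's adjusted p (3 samples a group), beside a median of 0.08 over all tested genes. Among members the difference was 0.263 for FANCG (adjusted p = 0.00351) and 0.405 for FANCL (adjusted p = 0.0253), and both fell less with siFOXN3-2. Among proteins that bind the core it was 0.352 for FAAP24 (adjusted p = 0.00462), 0.666 for FAAP100 (adjusted p = 0.000547) and -0.343 for CENPX (adjusted p = 0.00427). Of the ubiquitin switch, it was 0.302 for UBE2T (adjusted p = 0.0169) and 0.265 for USP1 (adjusted p = 0.0103). Of the nuclease and recombination genes, it was 0.451 for MUS81 (adjusted p = 0.00168), -0.314 for ERCC1 (adjusted p = 0.0122), 0.35 for PALB2 (adjusted p = 0.0114), 0.301 for BRIP1 (adjusted p = 0.0237) and 0.2 for RFWD3 (adjusted p = 0.0302). Of the polymerases it was 0.217 for REV1 (adjusted p = 0.0483) and -0.401 for POLH (adjusted p = 0.00378). Of the sensing and ATR genes it was 0.275 for CHEK1 (adjusted p = 0.0209), 0.171 for RPA1 (adjusted p = 0.0315), 0.328 for RPA3 (adjusted p = 0.00921) and 0.281 for UHRF1 (adjusted p = 0.00325). Under median-ratio scaling FANCL, UBE2T, USP1, BRIP1, RFWD3, REV1, CHEK1 and RPA1 did not pass. REV1 was then at 0.14 (adjusted p = 0.169) and RPA1 at 0.08 (adjusted p = 0.283). REV1 also did not pass with the replicate block (adjusted p = 0.101). Without the samples labelled siFOXN4 and siFOXN5, FANCG (0.28), FAAP100 and MUS81 were among those that still passed. FANCL (0.11), UBE2T (0.20), USP1 (0.15), FAAP24 (0.33), ERCC1 (-0.27), PALB2 (0.27) and BRIP1 (0.18) did not. Nor did RFWD3 (0.20), REV1 (0.27), CHEK1 (0.13) and RPA3 (0.30).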

How the results depend on the processing

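FANCC, FANCD2, FANCG, FANCI and FANCL kept their direction and call against siControl under all 20 alternatives, as did FANCA under all but 1. FANCC ranged from -0.96 to -0.49 with siFOXN3-1 and from -1.07 to -0.63 with siFOXN3-2, and FANCD2 from -0.74 to -0.43 and from -0.68 to -0.45. FANCG ranged from -0.71 to -0.37 and from -0.43 to -0.18, its smallest changes being under the GC and length correction, and FANCI from -0.42 to -0.19 and from -0.41 to -0.26, smallest under median-ratio scaling. FANCL ranged from -0.97 to -0.68 and from -0.76, without the siFOXN4 and siFOXN5 labels, to -0.32 without siFOXN3-2 replicate 1. Of the single-gene values, 2429 kept their side of the threshold, 110 lost the call and 34 gained it. Among the 2429, 79 passed neither way and changed sign, such as FANCE (0.13) and FANCM (0.09) with siFOXN3-1 under median-ratio scaling. In 5 more the sign changed and a call was made or lost: FANCM (0.21) and REV1 (0.19) with siFOXN3-1 under quantile normalization, and under the correction for GC content and length FANCE with siFOXN3-1 (0.22), FANCA with siFOXN3-2 (0.0112) and MAD2L2 with siFOXN3-2 (0.13); the cause was not tested.

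Members called higher were 0 with each siRNA. With siFOXN3-1 they became 2 under quantile normalization and 1 under the GC and length correction, and with siFOXN3-2 they became 1 under median-ratio scaling and 2 under quantile normalization. All tested genes called higher with siFOXN3-1 went from 2458 of 12707 to 3645 and 3955 in these settings. With siFOXN3-2 they went from 3066 of 12707 to 3918 of 12667 and 3746 of 12707. Between the siRNAs, the 2 members called higher became 1 with a filter at 0.1 FPKM, with no filter, under median-ratio scaling, quantile normalization, the GC and length correction, the replicate block and without the siFOXN4 and siFOXN5 labels, and 1 to 2 when single samples were left out. Partners called higher with siFOXN3-1 (3) became 7 under median-ratio scaling and 6 under the GC and length correction, and 1 to 3 without single samples, the 1 without siFOXN3-1 replicate 1. With siFOXN3-2 (5) they became 8 under the GC and length correction, and as few as 3 without siControl replicate 2 or siFOXN3-2 replicate 3. Over all tested genes, 3988 of 12667 were higher with siFOXN3-1 under median-ratio scaling. With siFOXN3-2, 4144 of 12707 were higher under the GC and length correction. Partners called higher between the siRNAs (13) became 7 with no filter, 6 under median-ratio scaling, 8 under quantile normalization, 8 with the replicate block and 8 without siFOXN3-2 replicate 3. Over all tested genes, the 3227 higher became 2397 of 34789 with no filter and 1940 of 12667 under median-ratio scaling. They became 2075 under quantile normalization, 2419 with the replicate block and 2662 of 12733 without siFOXN3-2 replicate 3. The replicate block gave 5428 lower and 2240 higher genes with siFOXN3-1 against 5762 and 2458 without it.

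Without 1 control sample no permutation p can go below 0.0714. The differences then were -0.34 to -0.25 for FANCD2 to FANCI, -0.50 to -0.44 for USP1 to UBE2T (-0.52 to -0.44 over all single samples) and -0.37 to -0.23 for FANCF. Without the siFOXN4 and siFOXN5 labels they were -0.31, -0.47 and -0.31, each at an exact permutation p = 0.0571, the smallest then possible. Partners called higher then were 2 with siFOXN3-2 and 5 between the siRNAs. Depth limits FANCF and CENPS, which have few fragments.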
